A study of Mus musculus with 27 samples.

Results

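Notch receptors, ligands and targets were followed through differentiation in 3 pluripotent lines of the mouse. The set held 10 genes of the 18193 measured, namely the receptors Notch1 and Notch3, the ligands Dll1, Dll3 and Jag1, and the targets Hes1, Hes5, Hey1, Hey2 and Heyl. The 10 were chosen with earlier results of these data known, and their probe sets were then taken by gene symbol. Every probe set whose only gene symbol in the array annotation was one of the 10 was kept, which gave 17 of 34945 single-symbol probe sets. Where a gene had several probe sets, the one with the brightest mean over all arrays stood for it, and the others are described beside it.

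The study asked how well such lines can form heart cells. The groups were 4F (19BL), an induced pluripotent stem cell line reprogrammed with 4 transcription factors, 3F (H9), an induced pluripotent line reprogrammed with 3, and R1, an embryonic stem cell line, each at days 0, 5 and 11 with 3 biological replicates, 27 arrays in all. At day 0 the cells of every line were undifferentiated and had been grown with leukemia inhibitory factor (LIF) on feeder cells, whose growth mitomycin had stopped, so those RNA samples can hold feeder RNA. For days 5 and 11 each line formed embryoid bodies, aggregates that differentiate spontaneously, in medium with 20% fetal bovine serum and no LIF. Each kind of pluripotent cell is represented by a single line, so that a difference between lines and a difference between kinds of cell cannot be told apart. Nothing in the sources says whether the replicates of a group came from separate thaws or separate embryoid body preparations, so the p-values measure the spread between these samples.

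Notch receptors sit in the cell membrane and bind Delta-like and Jagged ligands on neighbouring cells. Binding leads to cleavage by an ADAM protease and by gamma-secretase, and the freed intracellular domain joins the DNA-binding protein RBPJ and a Mastermind-like coactivator to switch on targets such as the Hes and Hey genes, which encode transcriptional repressors. In the mouse embryo the pathway is known for the segmentation of somites, the upkeep of neural progenitors and the building of blood vessels and heart.

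The letters GTGGGAA, the core of the motif that RBPJ is known to bind, were looked for on both strands in RefSeq promoter windows (GRCm38.p6) that run from 250 bases before to 50 bases after a gene's start. Windows were at hand for 7 of the 10 genes, 8 windows in all, and 2 of them, those of Hes5 and Hey2, held the letters 2 times each. Among all 32851 windows, 6.38% held 1 match or more and 0.256% held 2 or more. The windows of Notch1, Notch3, Dll1, Dll3 and Jag1 held none, which says only that these letters are not there. Hes1, Hey1 and Heyl have no window in the table. The 4 stretches are shown because Hey2 is among the genes that changed most and Hes5 among those that changed least. Each has 30 bases, 5′ to 3′ on the strand of its gene, with the matching letters in capitals (GTGGGAA, or its reverse complement TTCCCAC). The matches do not overlap one another.
Hes5 upstream match: gggcgagcgcgTTCCCACagcccggacatt
Hes5 downstream match: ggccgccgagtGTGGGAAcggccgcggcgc
Hey2 upstream match: gcgcggtggcaTTCCCACgcctctgccaac
Hey2 downstream match: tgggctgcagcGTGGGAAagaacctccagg
The Hes5 stretches lie at chr4:154960686-154960715 and chr4:154960829-154960858 on the plus strand, and their matches begin 226 and 83 bases before the start. Those of Hey2 lie at chr10:30842972-30843001 and chr10:30842769-30842798 on the minus strand, and their matches begin 207 and 4 bases before the start. A match is a description of the sequence, not a binding site.

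Levels are log2 signals made by RMA (robust multi-array average), with array medians of 5.91 to 6.1, so a step of 1 is a 2-fold difference. Changes are differences of group means ± the standard error of a limma fit to all arrays, with n = 3 arrays a group. The words rose, fell, higher and lower are used of a change where its adjusted p was under 0.05 and its size at least 2-fold, and such a change is named a call. The array of 4F day 5 replicate 3 stood apart from its group: on the first principal component, the axis of greatest spread over all genes, it scored -19.3, against -43.5 and -44.2 for replicates 1 and 2. Rgs5, a pericyte gene, read 5.55, 4.69 and 8.29 on replicates 1, 2 and 3 of that group. Calls of the 10 genes that changed without that array, and the other changes of these genes given below that moved by over 1.5 times, are given both ways. R1 day 5 replicate 3 scored 29.2 on the same axis, against -1.53 and 8.49 for its replicates 1 and 2. The 3 arrays of 3F at day 11 had the lowest mean correlations with the other arrays of their own group, 0.964 to 0.972. Calls that changed without one of these arrays are given with their gene. The 3′ minus 5′ signal of the Actb and Gapdh control probe sets, a sign of RNA quality, was 2.69 ± 0.23 in 4F at day 11, against 1.55 ± 0.23 in 3F and 1.94 ± 0.20 in R1 (SD, n = 3 each). All 10 genes passed a filter on dim values (above 5.37, the 40th percentile of all values, on at least 3 arrays). In bulk RNA, fewer cells of a type and less RNA per cell cannot be told apart.

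**Figure D1:**
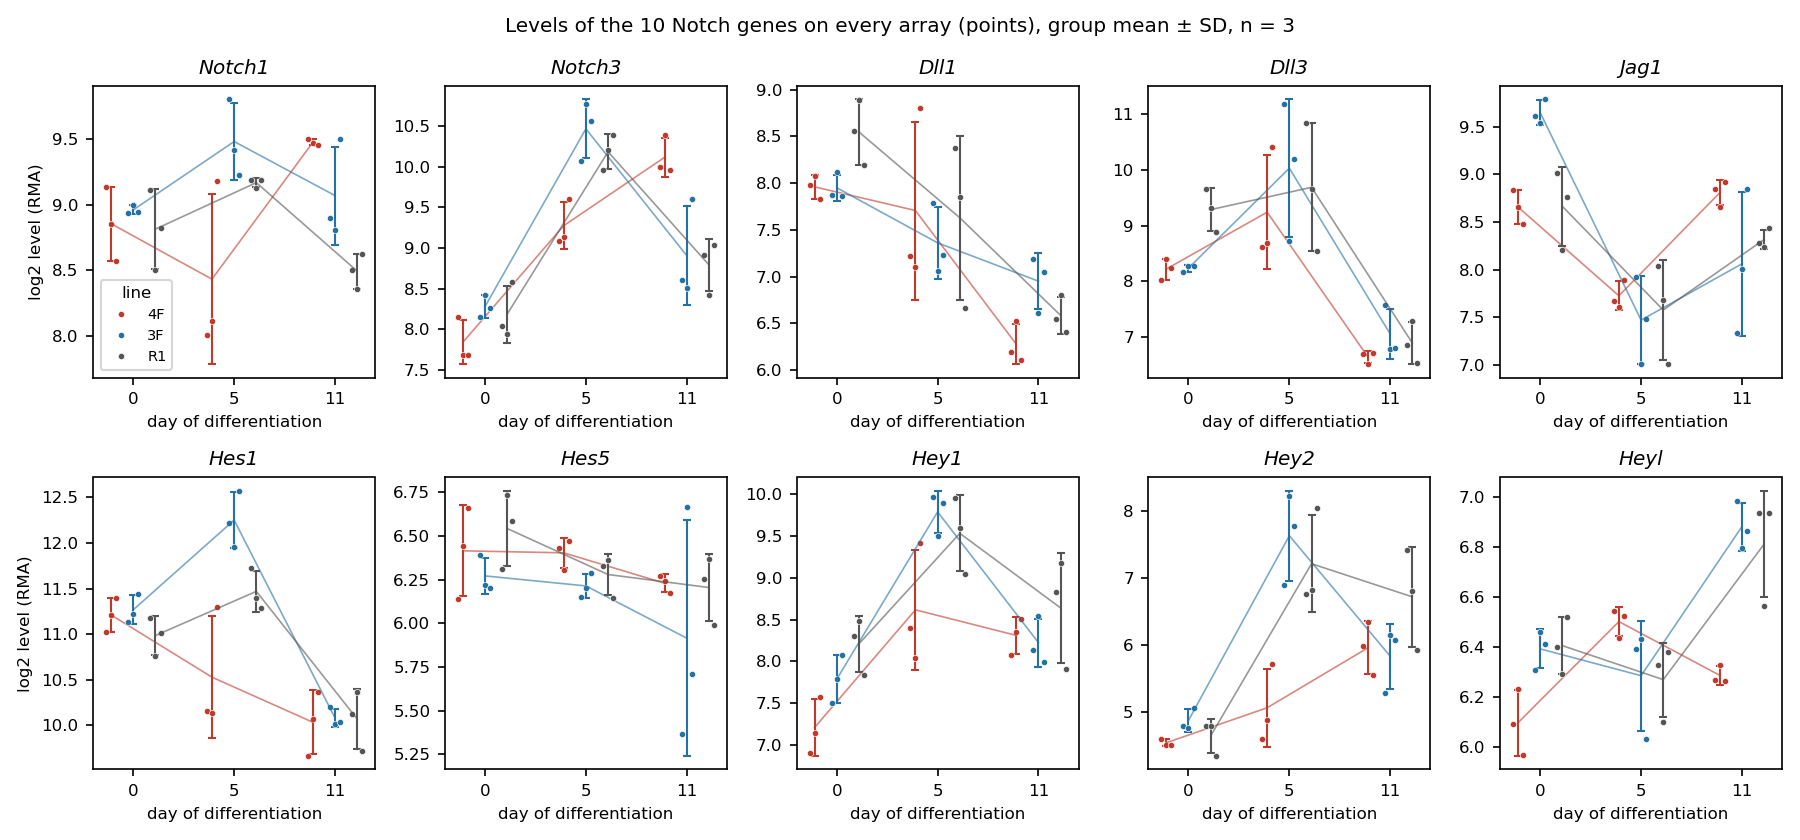
Levels of the 10 Notch genes (vertical axis, log2 RMA signal, a scale of its own for each gene) by day of differentiation. Points are single arrays, bars are the group mean ± SD (n = 3) and thin lines join the means of 4F (red), 3F (blue) and R1 (grey). Notch3, Hey1 and Hey2 are higher at day 5 than at day 0 in 3F and R1, Dll1 and Dll3 are lowest at day 11 in each line, and Notch3 is highest at day 11 in 4F.

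Between day 0 and day 5, 2 of the 10 genes rose and 0 fell in 4F (of all genes tested, 2.25% higher and 4.82% lower), 4 rose and 1 fell in 3F (of all genes tested, 5.04% higher and 7.40% lower), and 3 rose and 1 fell in R1 (of all genes tested, 6.62% higher and 8.10% lower). Notch3 and Hey1 rose in each line, and Hey2 in 3F and R1. Between day 5 and day 11, 2 rose and 2 fell in 4F (of all genes tested, 6.66% higher and 9.16% lower), 0 rose and 5 fell in 3F (of all genes tested, 6.16% higher and 10.8% lower), and 0 rose and 4 fell in R1 (of all genes tested, 7.10% higher and 4.53% lower). Dll3 fell in each line. Day 11 set against day 0 gave calls as follows: 3 rose and 3 fell in 4F (of all genes tested, 6.72% higher and 14.1% lower), 0 rose and 2 fell in 3F (of all genes tested, 7.55% higher and 16.0% lower), and 1 rose and 2 fell in R1 (of all genes tested, 11.4% higher and 12.2% lower). Where any of the 10 genes was called in a direction, their share was above that of all genes, except for the genes higher at day 11 than at day 0 in R1. For the fall of 2 genes over the same days in 3F, the margin over all genes was narrow. A call of 1 gene is already 10% of the set, which is above the share of all genes wherever that is smaller. The shares of all genes also include dim genes: 14702 of the 18193 passed the filter on dim values, as did all of the 10. Because the 10 were chosen with earlier results of these data known, these margins are descriptions. The falls by day 5 in 3F and R1 rest on 1 gene, Jag1, and were near the shares of all genes. Leaving out each array in turn, 33 of the 43 calls made in comparisons of 2 groups held every time, and those that did not are named with their gene. When 4F day 5 replicate 3 was left out, 2 rose and 2 fell by day 5 in 4F, and 4 rose and 1 fell between days 5 and 11. The median change of all genes was beyond 0.1 in 4 of the 18 comparisons of 2 groups, at -0.15 for day 11 against day 5 and -0.11 for day 11 against day 0 in 4F, and at day 11 -0.12 for 4F against 3F and -0.102 for 4F against R1. With the 3′ minus 5′ index as a covariate, 4 of the 6 calls at day 11 against day 0 in 4F were lost, those of Dll3 (-2.70, adjusted p = 0.089), Hes1 (-1.12, adjusted p = 0.154), Hey1 (0.26, adjusted p = 0.84) and Hey2 (2.06, adjusted p = 0.0802).

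**Figure D2:**
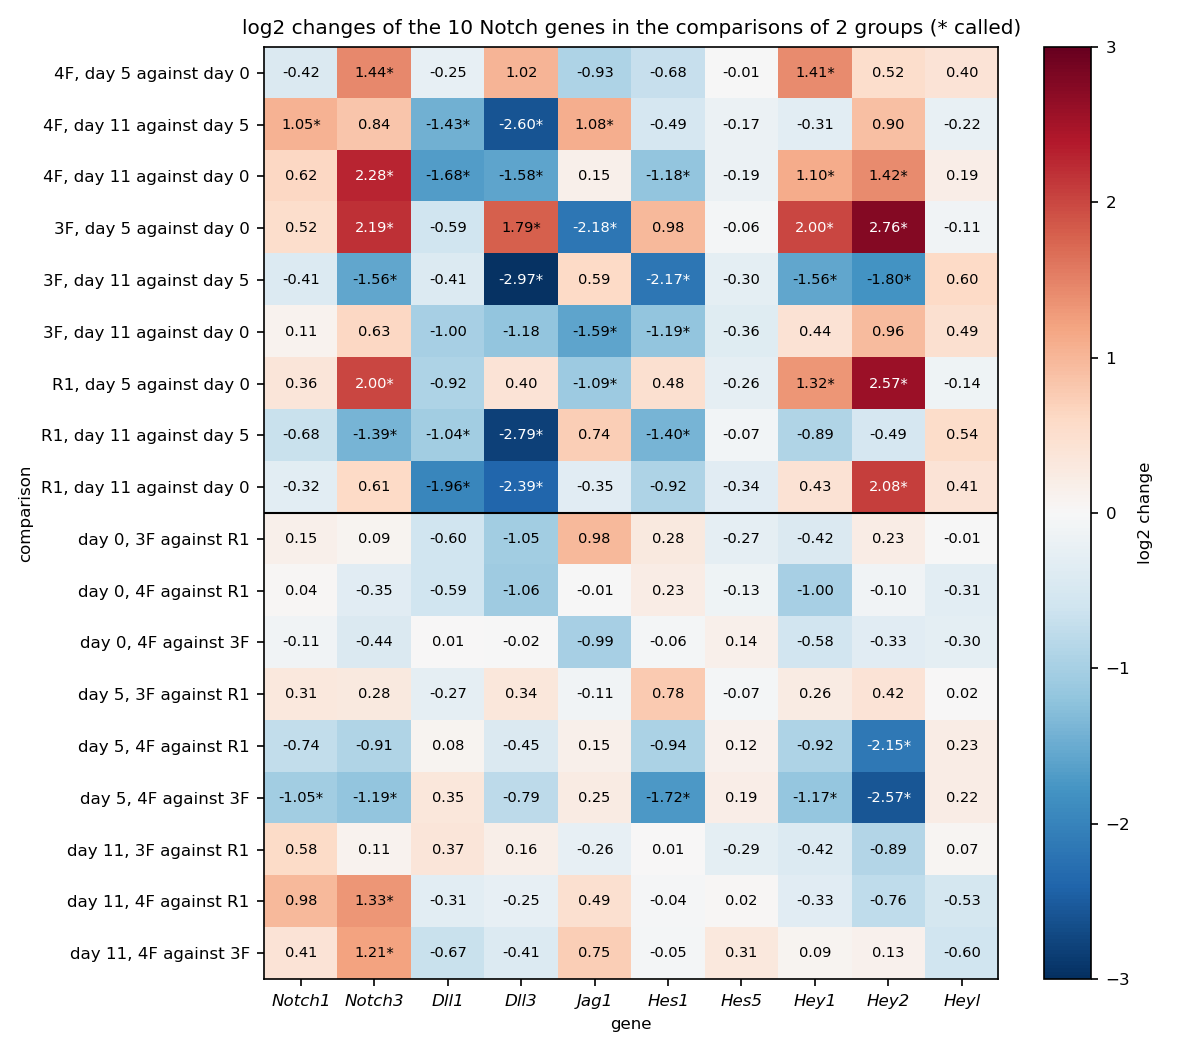
Log2 changes of the 10 genes (columns) in the 18 comparisons of 2 groups (rows), days within a line above the black line and lines at a day below it. Red is higher and blue lower in the group named first, colours end at 3 and -3, and an asterisk marks an adjusted p under 0.05 with a change of at least 2-fold. Asterisks are missing from all rows at day 0 and from all rows of 3F against R1.

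Notch3, a receptor known from vascular smooth muscle cells and pericytes, was lower in undifferentiated cells than at day 5 in every line. Notch3 levels in 4F were 8.15, 7.68 and 7.68 at day 0, 9.08, 9.13 and 9.61 at day 5 and 9.999, 10.40 and 9.96 at day 11. Notch3 levels in 3F were 8.15, 8.43 and 8.26 at day 0, 10.07, 10.78 and 10.56 at day 5 and 8.61, 8.51 and 9.60 at day 11. Notch3 levels in R1 were 8.03, 7.94 and 8.59 at day 0, 9.96, 10.20 and 10.39 at day 5 and 8.91, 8.42 and 9.04 at day 11. Every day 5 array was above every day 0 array of its line, and at day 11 the 4F arrays were above their day 5 arrays while those of 3F and R1 were below theirs. By day 5 Notch3 rose 2.71-fold in 4F (a log2 change of 1.44 ± 0.26, adjusted p = 0.000338), 4.57-fold in 3F (2.19 ± 0.26, adjusted p = 8.66e-07) and 4.003-fold in R1 (2.001 ± 0.26, adjusted p = 3.05e-06). It then fell in 3F and R1 by day 11, with log2 changes from day 5 of -1.56 ± 0.26 in 3F (adjusted p = 4.13e-05) and -1.39 ± 0.26 in R1 (adjusted p = 0.000259). In 4F the day 11 value minus the day 5 value was 0.84 ± 0.26 (adjusted p = 0.0122), under 2-fold, and 1.01 (adjusted p = 0.00759) without 4F day 5 replicate 3. Against day 0, 4F at day 11 stood 2.28 ± 0.26 (adjusted p = 2.33e-07) higher, the largest fold of any of the 10 genes in that comparison (4.86-fold).

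Between lines, Notch3 at day 5 was lower in 4F than in 3F (a difference of -1.19 ± 0.26, adjusted p = 0.00214), with no overlap of the arrays, and 4F minus R1 was -0.91 ± 0.26 (adjusted p = 0.0209). Without 4F day 5 replicate 3 the difference from R1 passed the threshold at -1.08 (adjusted p = 0.0107), and without R1 day 5 replicate 1 at -1.02 (adjusted p = 0.0229). At day 11 4F was above 3F by 1.21 ± 0.26 (adjusted p = 0.00122) and above R1 by 1.33 ± 0.26 (adjusted p = 0.000649), and no array of 4F overlapped with those of the other lines. With the 3′ minus 5′ index as a covariate, the day 5 difference between 4F and 3F was -0.97 (adjusted p = 0.0526). A second Notch3 probe set tracked the first (Pearson r = 0.945 over the 27 arrays, a description, since the arrays share lines and days) and gave 5 of its 9 calls in the same direction, among them day 11 against day 0 in 4F (1.37 ± 0.19, adjusted p = 4.55e-06). It gave no call between lines, and the mean of both probe sets put day 11 at 0.92 (adjusted p = 0.00206) for 4F against R1 and 0.75 (adjusted p = 0.00769) for 4F against 3F. With only the 6 compared arrays the day 11 difference from 3F was 1.21 (adjusted p = 0.0679). In order of level the groups ran 3F day 5, R1 day 5, 4F day 11, 4F day 5, 3F day 11, R1 day 11, 3F day 0, R1 day 0 and 4F day 0. Among these neighbours the step from 4F day 11 to 4F day 5 passed an adjusted p of 0.05, and the other steps did not.

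Notch1, a receptor used in many tissues of the mouse embryo, varied least among the receptors and ligands, with group means that spanned 1.05. Notch1 levels in 4F were 9.14, 8.85 and 8.57 at day 0, 8.004, 8.11 and 9.18 at day 5 and 9.503, 9.47 and 9.46 at day 11. Notch1 levels in 3F were 8.94, 9.0002 and 8.94 at day 0, 9.81, 9.42 and 9.22 at day 5 and 8.90, 8.81 and 9.499 at day 11. Notch1 levels in R1 were 9.11, 8.505 and 8.83 at day 0, 9.19, 9.13 and 9.19 at day 5 and 8.499, 8.35 and 8.62 at day 11. In 4F at day 5, replicates 1 and 2 lay below every other array, while replicate 3 lay among them, and the day 11 arrays of 4F lay within 0.05 of each other. Notch1 passed in 2 comparisons: it was higher in 4F at day 11 than at day 5 (1.05 ± 0.24, adjusted p = 0.00124) and lower at day 5 in 4F than in 3F (-1.05 ± 0.24, adjusted p = 0.00307). Both values stood close to 2-fold and moved with single arrays. The rise in 4F was under 2-fold without 4F day 5 replicate 1 (0.83, adjusted p = 0.0142) or replicate 2 (0.88, adjusted p = 0.0123) and with arrays centred on their medians (0.95, adjusted p = 0.00294). The day 5 difference was under 2-fold without 4F day 5 replicate 1 (-0.84, adjusted p = 0.0368), replicate 2 (-0.89, adjusted p = 0.0316) or 3F day 5 replicate 1 (-0.89, adjusted p = 0.0237). Further Notch1 values passed when an array was left out: 4F minus R1 at day 5 was -1.11 (adjusted p = 0.000469) without 4F day 5 replicate 3, and at day 11 1.05 (adjusted p = 0.00765) without R1 day 11 replicate 3, where all arrays gave -0.74 ± 0.24 (adjusted p = 0.0429) at day 5 and 0.98 ± 0.24 (adjusted p = 0.00387) at day 11. The day 5 difference was also lost with the 3′ minus 5′ index as a covariate (-0.81, adjusted p = 0.078) and with quantile normalization (-0.94, adjusted p = 0.00427). With the mean of probe sets the rise in 4F was 0.43 (adjusted p = 0.0207) and the day 5 difference -0.53 (adjusted p = 0.0141). A second, dimmer Notch1 probe set gave no call and followed the first weakly (r = 0.22 over 27 arrays). On it, 4F averaged 6.74 at day 0, 7.25 at day 5 and 7.07 at day 11, so its 4F values went the other way. At day 5 its 3F mean was 7.26, close to that of 4F. Both Notch1 calls thus rest on the brighter probe set. No neighbouring step in the order of the 9 group means passed the test.

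Dll1, a ligand that activates receptors on the next cell and is known from somites and neural progenitors, was lower at day 11 than at day 0. Dll1 levels in 4F were 7.98, 8.07 and 7.82 at day 0, 7.22, 7.10 and 8.80 at day 5 and 6.20, 6.52 and 6.11 at day 11. Dll1 levels in 3F were 7.88, 8.11 and 7.86 at day 0, 7.79, 7.06 and 7.23 at day 5 and 7.18, 6.61 and 7.05 at day 11. Dll1 levels in R1 were 8.56, 8.89 and 8.19 at day 0, 8.37, 7.86 and 6.66 at day 5 and 6.54, 6.80 and 6.41 at day 11. Every day 11 array was below every day 0 array of its line, and the day 5 arrays of 4F and R1 spread over more than 1.5 log2 units. Dll1 fell from day 0 to day 11 in 4F and R1, with changes of -1.68 ± 0.37 in 4F (adjusted p = 0.000661) and -1.96 ± 0.37 in R1 (adjusted p = 0.00012). In 3F the same change was -0.999 ± 0.37 (adjusted p = 0.0292), just short of 2-fold, and it passed without 3F day 11 replicate 1 (-1.12, adjusted p = 0.0354) or replicate 3 (-1.05, adjusted p = 0.0415). Between days 5 and 11 it fell in 4F (-1.43 ± 0.37, adjusted p = 0.0036), but the value was -0.88 (adjusted p = 0.039) without 4F day 5 replicate 3, the array with the highest Dll1 of its group. In R1 that step was -1.04 ± 0.37 (adjusted p = 0.0374), and the call was lost without any single array of the 6 other than R1 day 5 replicate 3, over a range of -1.53 to -0.67. Day 5 minus day 0 in R1 was -0.92 ± 0.37 (adjusted p = 0.0563), and it passed without R1 day 0 replicate 3 (-1.10, adjusted p = 0.0465) or R1 day 5 replicate 1 (-1.29, adjusted p = 0.0121). Dll1 did not pass in any comparison between lines. The order of group means ran from R1 day 0, the highest, to 4F day 11, the lowest, with no neighbouring step past the test.

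Dll3, a ligand known to hold back Notch signalling within its own cell and needed for regular somites in the mouse, had the widest span of the 10 genes, 3.38 between its highest and lowest group mean. Dll3 levels in 4F were 8.03, 8.40 and 8.23 at day 0, 8.61, 8.69 and 10.42 at day 5 and 6.70, 6.53 and 6.71 at day 11. Dll3 levels in 3F were 8.17, 8.27 and 8.28 at day 0, 11.18, 8.72 and 10.19 at day 5 and 7.58, 6.79 and 6.81 at day 11. Dll3 levels in R1 were 9.65, 9.32 and 8.89 at day 0, 10.84, 9.66 and 8.55 at day 5 and 6.86, 7.29 and 6.54 at day 11. All 9 day 11 arrays were below all day 0 and day 5 arrays, whereas at day 5 the 3 arrays of each line spread over more than 1.5 log2 units. Dll3 fell in each line between days 5 and 11, by a log2 change of -2.60 ± 0.52 in 4F (6.04-fold, adjusted p = 0.000399), -2.97 ± 0.52 in 3F (7.83-fold, adjusted p = 8.55e-05) and -2.79 ± 0.52 in R1 (6.92-fold, adjusted p = 0.000293). These calls held without each array, over ranges of -2.91 to -2.01 in 4F (the smallest fall without 4F day 5 replicate 3), -3.62 to -2.40 in 3F (the largest without 3F day 5 replicate 2) and -3.36 to -2.21 in R1.

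Set against day 0, Dll3 at day 11 was lower in 4F and R1, with changes of -1.58 ± 0.52 in 4F (adjusted p = 0.0171) and -2.39 ± 0.52 in R1 (adjusted p = 0.000578), and the 4F value did not pass without 4F day 0 replicate 2 (-1.49, adjusted p = 0.0556). In 3F it was -1.18 ± 0.52 (adjusted p = 0.0673) and passed with only the compared arrays (-1.18, adjusted p = 0.00655). The rise by day 5 passed in 3F (1.79 ± 0.52, adjusted p = 0.0111), where it was 1.22 (adjusted p = 0.101) without 3F day 5 replicate 1, and 2.44 without replicate 2. Day 5 minus day 0 was 1.02 ± 0.52 (adjusted p = 0.18) in 4F, or 0.43 (adjusted p = 0.657) without 4F day 5 replicate 3, and 0.40 ± 0.52 (adjusted p = 0.616) in R1. At day 0 the 6 arrays of 4F and 3F all lay below the 3 of R1, with differences from R1 of -1.06 ± 0.52 (adjusted p = 0.388) in 4F and -1.05 ± 0.52 (adjusted p = 0.235) in 3F. In a fit of the compared arrays with the replicate number as a block, these were -1.06 (adjusted p = 0.0216) and -1.05 (adjusted p = 0.0208). That fit was added after seeing the data, and the labels state no pairing by replicate number. No neighbouring step in the order of the 9 groups passed, and the 3 lowest groups were those of day 11.

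Jag1, a Jagged ligand known from vessels, heart and stroma, was lowest at day 5 in each line. Jag1 levels in 4F were 8.83, 8.66 and 8.48 at day 0, 7.67, 7.61 and 7.90 at day 5 and 8.85, 8.66 and 8.92 at day 11. Jag1 levels in 3F were 9.61, 9.54 and 9.79 at day 0, 7.92, 7.01 and 7.48 at day 5 and 7.34, 8.004 and 8.84 at day 11. Jag1 levels in R1 were 9.02, 8.21 and 8.76 at day 0, 8.04, 7.68 and 7.01 at day 5 and 8.28, 8.24 and 8.43 at day 11. The day 0 arrays of 3F were above all other 24 arrays, and the day 5 arrays of each line were below all its day 0 arrays. By day 5 Jag1 fell 4.52-fold in 3F (-2.18 ± 0.29, adjusted p = 5.06e-06) and 2.12-fold in R1 (-1.09 ± 0.29, adjusted p = 0.00526). The R1 value was under 2-fold without R1 day 0 replicate 1 (-0.91, adjusted p = 0.0319) and without R1 day 5 replicate 3 (-0.80, adjusted p = 0.052). In 4F it was -0.93 ± 0.29 (adjusted p = 0.0246), and -1.02 (adjusted p = 0.0376) without 4F day 5 replicate 3 or -1.02 (adjusted p = 0.0389) without 4F day 0 replicate 3. Jag1 then rose again in 4F by day 11 (1.08 ± 0.29, adjusted p = 0.00517), and in 3F it was still lower at day 11 than at day 0 (-1.59 ± 0.29, adjusted p = 9.39e-05).

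At day 0, 3F minus R1 was 0.98 ± 0.29 (adjusted p = 0.043), just under 2-fold, and 1.16 (adjusted p = 0.0165) without R1 day 0 replicate 1, while 4F minus 3F was -0.99 ± 0.29 (adjusted p = 0.0561). At day 11, 4F minus 3F was 0.75 ± 0.29 (adjusted p = 0.0562), and 1.14 (adjusted p = 0.00385) without 3F day 11 replicate 3. Of the groups, 3F at day 0 stood above the next, 4F at day 11, by a step that passed an adjusted p of 0.05, and no other neighbouring step did. Fibroblast genes, which feeder cells express, were, among the lines at day 0, highest in 3F, as Jag1 was: the mean level of 12 such genes was 9.74 to 10.7 per array in 4F, 10.8 to 11.6 in 3F and 9.22 to 10.2 in R1. By day 5 it was 6.52 to 7.14 in 4F, 7.48 to 8.13 in 3F and 7.25 to 8.71 in R1, and none of the 12 genes was under the 40th percentile in any line at day 0. At day 11 their mean was 9.51 to 10.7 in 4F, 11.5 to 12.2 in 3F and 11.5 to 12.01 in R1. In 3F the ranges of day 0 and day 11 overlapped. At day 11, 8 of the 12 were lower in 4F than in 3F and 7 lower than in R1, with none higher. Of all genes, 4.91% and 5.92% were lower. Their part in the Jag1 values was not tested. Of 2 further Jag1 probe sets, both dimmer, one gave no call (r = -0.17 with the first over 27 arrays). The other (r = 0.74) shared both 3F calls against day 0. It added falls in 4F at day 5 (-1.02 ± 0.25, adjusted p = 0.00549) and day 11 (-1.21 ± 0.25, adjusted p = 0.000382). This probe set was under the 40th percentile on 2 of the 3 arrays of 4F at day 5 and on all 3 at day 11. The brightest probe set had 0.15 ± 0.29 (adjusted p = 0.723) for 4F at day 11 against day 0. With the mean of all Jag1 probe sets, the rise in 4F from day 5 to day 11 was 0.31 (adjusted p = 0.156), and it was 0.98 (adjusted p = 0.00973) with arrays centred on their medians.

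Hes1, a repressor that many Notch signals switch on and that is known to oscillate in mouse embryonic stem cells, was lowest at day 11 in each line. Hes1 levels in 4F were 11.03, 11.21 and 11.40 at day 0, 10.15, 10.13 and 11.30 at day 5 and 9.67, 10.07 and 10.37 at day 11. Hes1 levels in 3F were 11.13, 11.23 and 11.45 at day 0, 12.22, 11.96 and 12.57 at day 5 and 10.20, 10.01 and 10.04 at day 11. Hes1 levels in R1 were 11.18, 10.76 and 11.02 at day 0, 11.72, 11.40 and 11.29 at day 5 and 10.12, 10.37 and 9.72 at day 11. At day 5 all 3F arrays were above all R1 arrays, and replicates 1 and 2 of 4F were more than 1 below every array of either. By day 11 the lines overlapped, with group means of 10.03 ± 0.35 in 4F, 10.08 ± 0.10 in 3F and 10.07 ± 0.33 in R1 (SD, n = 3 each). Hes1 fell from day 5 to day 11 in 3F and R1, with changes of -2.17 ± 0.25 in 3F (4.501-fold, adjusted p = 4.81e-07) and -1.40 ± 0.25 in R1 (2.64-fold, adjusted p = 0.000174). In 4F that step was -0.49 ± 0.25 (adjusted p = 0.125), or -0.11 (adjusted p = 0.737) without 4F day 5 replicate 3. Day 11 was lower than day 0 in 4F and 3F, with changes of -1.18 ± 0.25 in 4F (adjusted p = 0.000472) and -1.19 ± 0.25 in 3F (adjusted p = 0.00039), and the R1 change was -0.92 ± 0.25 (adjusted p = 0.00403).

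Hes1 in 4F against 3F at day 5 differed by -1.72 ± 0.25 (adjusted p = 4.52e-05), a 3.30-fold lower level in 4F, and 4F minus R1 was -0.94 ± 0.25 (adjusted p = 0.0137). Without 4F day 5 replicate 3, the difference from R1 passed at -1.33 (adjusted p = 0.000148), as it did without R1 day 5 replicate 3 (-1.03, adjusted p = 0.0274). Day 5 minus day 0 in 4F was -0.68 ± 0.25 (adjusted p = 0.0537) with all arrays and -1.07 (adjusted p = 0.00148) without 4F day 5 replicate 3. In 3F it was 0.98 ± 0.25 (adjusted p = 0.00397), and it passed without 3F day 0 replicate 3 (1.07, adjusted p = 0.00726) or 3F day 5 replicate 2 (1.13, adjusted p = 0.0042). The day 11 call against day 0 in 4F was lost without 4F day 11 replicate 1 (-0.99, adjusted p = 0.00558). Cyclic loess put that value at -0.61 (adjusted p = 0.0476) in 4F and -0.55 (adjusted p = 0.0737) in 3F. The R1 value at day 11 against day 0 was -1.03 (adjusted p = 0.00499) without R1 day 0 replicate 2 and -1.07 (adjusted p = 0.00324) without R1 day 11 replicate 2. No neighbouring step in the order of the 9 groups passed the test.

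Hey1, a Hey repressor known from arteries and heart, rose by day 5 in every line. Hey1 levels in 4F were 6.91, 7.14 and 7.57 at day 0, 8.39, 8.04 and 9.42 at day 5 and 8.07, 8.35 and 8.51 at day 11. Hey1 levels in 3F were 7.499, 7.79 and 8.08 at day 0, 9.97, 9.500 and 9.90 at day 5 and 8.13, 8.54 and 7.995 at day 11. Hey1 levels in R1 were 8.31, 8.49 and 7.84 at day 0, 9.95, 9.60 and 9.05 at day 5 and 8.83, 9.17 and 7.91 at day 11. Each day 5 array was above all day 0 arrays of its line, and at day 5 replicates 1 and 2 of 4F were below every array of 3F and R1. The rise was 2.66-fold in 4F (1.41 ± 0.32, adjusted p = 0.00304), 4.01-fold in 3F (2.002 ± 0.32, adjusted p = 4.98e-05) and 2.500-fold in R1 (1.32 ± 0.32, adjusted p = 0.00258). The Hey1 rise in 4F was 1.01 (adjusted p = 0.0302) without 4F day 5 replicate 3. By day 11 Hey1 had fallen again in 3F (-1.56 ± 0.32, adjusted p = 0.000488 against day 5), and the same step was -0.31 ± 0.32 (adjusted p = 0.488) in 4F and -0.89 ± 0.32 (adjusted p = 0.0435) in R1. In 4F the step was 0.09 (adjusted p = 0.849) without 4F day 5 replicate 3. The R1 step passed without R1 day 5 replicate 3 (-1.14, adjusted p = 0.0197) or R1 day 11 replicate 2 (-1.16, adjusted p = 0.0179). In 4F, day 11 was still above day 0 (1.10 ± 0.32, adjusted p = 0.00788), a call lost without 4F day 0 replicate 1 (0.95, adjusted p = 0.042).

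At day 5 Hey1 was lower in 4F than in 3F (-1.17 ± 0.32, adjusted p = 0.0138), and this call was lost without 3F day 5 replicate 1 or 3 or 4F day 5 replicate 1 or 2, over a range of -1.57 to -0.88. The difference from R1 was -0.92 ± 0.32 (adjusted p = 0.068), and -1.32 (adjusted p = 0.00549) without 4F day 5 replicate 3 or -1.16 (adjusted p = 0.0475) without R1 day 5 replicate 3. At day 0, where no Hey1 array of 4F overlapped with R1, 4F minus R1 was -1.002 ± 0.32 (adjusted p = 0.13) in the fit of all arrays. It was -1.002 (adjusted p = 0.0448) in a fit of the compared arrays with the replicate block, which was added after seeing the data. In the order of group means, the step from R1 day 5 down to R1 day 11 passed an adjusted p of 0.05 and no other step between neighbours did.

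Hey2, known from arterial endothelium and ventricular heart muscle, rose more than any other of the 10 genes by day 5 in 3F and R1, and had no call by then in 4F. Hey2 levels in 4F were 4.60, 4.504 and 4.51 at day 0, 4.60, 4.88 and 5.71 at day 5 and 5.98, 6.34 and 5.55 at day 11. Hey2 levels in 3F were 4.79, 4.76 and 5.06 at day 0, 6.90, 8.22 and 7.77 at day 5 and 5.28, 6.15 and 6.07 at day 11. Hey2 levels in R1 were 4.79, 4.78 and 4.34 at day 0, 6.77, 6.83 and 8.04 at day 5 and 7.42, 6.81 and 5.93 at day 11. All 9 day 0 arrays lay under the 40th percentile of all values, as did replicates 1 and 2 of 4F at day 5, and every day 5 array of 3F and R1 lay above every 4F array of that day. By day 5 Hey2 rose 6.77-fold in 3F (2.76 ± 0.38, adjusted p = 8.13e-06) and 5.95-fold in R1 (2.57 ± 0.38, adjusted p = 1.84e-05), and the 4F change was 0.52 ± 0.38 (adjusted p = 0.375), or 0.20 (adjusted p = 0.815) without 4F day 5 replicate 3. At day 5, 4F was lower than 3F (-2.57 ± 0.38, adjusted p = 6.43e-05) and lower than R1 (-2.15 ± 0.38, adjusted p = 0.000685), and both calls held without each array. After day 5 Hey2 fell in 3F (-1.80 ± 0.38, adjusted p = 0.000655), while the change was 0.90 ± 0.38 (adjusted p = 0.0703) in 4F and -0.49 ± 0.38 (adjusted p = 0.403) in R1. Without 4F day 5 replicate 3, the 4F step was 1.22 (adjusted p = 0.0232).

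Day 11 was above day 0 in 4F (1.42 ± 0.38, adjusted p = 0.00427) and in R1 (2.08 ± 0.38, adjusted p = 0.000101), whereas 3F stood at 0.96 ± 0.38 (adjusted p = 0.0435) and passed without 3F day 11 replicate 1 (1.24, adjusted p = 0.0203). At day 11 the lines overlapped, with group means of 5.96 ± 0.39 in 4F, 5.83 ± 0.48 in 3F and 6.72 ± 0.75 in R1 (SD, n = 3 each). The 4F value minus that of R1 was -0.76 ± 0.38 (adjusted p = 0.163), and -1.16 (adjusted p = 0.0404) without R1 day 11 replicate 3. No step between neighbours in the order of the 9 groups passed. The deposited table holds no detection calls, so a change from the dim day 0 levels is given as measured. Of 12 heart muscle genes, 0 rose by day 5 in 4F, 6 in 3F and 3 in R1 (of all genes, 2.25%, 5.04% and 6.62%). In 3F, 1 fell (7.40% of all genes). At day 5, 6 were lower in 4F than in 3F (a median difference of -1.07) and 2 lower than in R1 (-0.62). These counts, which stand against 4.57% and 3.14% of all genes, were 5 and 2 without 4F day 5 replicate 3. By day 11, where Hey2 overlapped between lines, 6 were lower in 4F than in 3F and 9 lower than in R1 (of all genes, 4.91% and 5.92%). Their mean level per array was 6.20 to 6.80 in 4F, 7.53 to 8.90 in 3F and 7.23 to 9.46 in R1. In 4F, 3 of these genes were under the 40th percentile at day 11, against 1 in 3F and 0 in R1. Their part in the Hey2 values was not tested.

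Hes5 and Heyl changed by less than 2-fold in all 27 comparisons. Hes5, a repressor known from neural progenitors, lay between 5.37 and 6.73 on the 27 arrays, with group means that spanned 0.63. The lowest array was one of 3F at day 11 and the highest one of R1 at day 0. Heyl, known from vascular smooth muscle, lay between 5.97 and 6.99. Its arrays at day 11 were all above those of day 5 in 3F and R1, by 0.60 ± 0.12 (adjusted p = 0.000498) and 0.54 ± 0.12 (adjusted p = 0.00189), against -0.22 ± 0.12 (adjusted p = 0.182) in 4F. At day 11 no Heyl array of 4F overlapped with the other lines, and 4F minus 3F was -0.60 ± 0.12 (adjusted p = 0.00103) and 4F minus R1 -0.53 ± 0.12 (adjusted p = 0.0033), small differences that did not reach 2-fold. For Hes5 the widest difference between lines at a day was that of 4F minus 3F at day 11, 0.31 (95% interval -0.12 to 0.75). One further Hes5 probe set and one of the 2 further Heyl probe sets were under the 40th percentile on all 27 arrays, and none of the 3 gave a call.

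At day 0 none of the 10 genes was called between lines by limma. The shares of all genes tested were 0.885% higher and 1.09% lower for 4F against 3F, 0.643% higher and 0.478% lower for 4F against R1 and 2.21% higher and 0.879% lower for 3F against R1. Of the 10 genes, 2, 2 and 1 had an unadjusted p under 0.05 in these comparisons. At day 5, 5 were lower in 4F than in 3F and none higher, namely Notch1, Notch3, Hes1, Hey1 and Hey2 (of all genes, 2.91% higher and 4.57% lower). This count was 3 without 4F day 5 replicate 1 or 2 or 3F day 5 replicate 1, each of which ended the calls of Notch1 and Hey1, and 4 without 3F day 5 replicate 3. Against R1, 1 was lower in 4F, Hey2 (of all genes, 2.31% higher and 3.14% lower), and this count was 5 without 4F day 5 replicate 3. None passed in 3F against R1 at day 5 (of all genes, 0.220% higher and 0.154% lower), where 1 of the 10 had an unadjusted p under 0.05. At day 11, 1 was higher in 4F than in 3F (of all genes, 5.12% higher and 4.91% lower) and 1 higher than in R1 (of all genes, 2.39% higher and 5.92% lower), Notch3 both times. Each of these 2 counts rests on 1 gene. None passed in 3F against R1 at day 11 (of all genes, 0.231% higher and 0.786% lower), where 2 of the 10 had an unadjusted p under 0.05. The data do not show that 3F and R1 were alike: the difference of 3F from R1 was 0.78 (95% interval 0.27 to 1.30) for Hes1 at day 5, 0.34 (95% interval -0.74 to 1.42) for Dll3 at day 5 and -0.89 (95% interval -1.68 to -0.09) for Hey2 at day 11.

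The difference between lines in the change over time was tested for each gene in the same fit. For the change to day 5, 2 of the 10 genes had a lower change in 4F than in 3F (of all genes, 1.97% higher and 1.51% lower) and 1 a lower change than in R1 (of all genes, 1.58% higher and 2.06% lower). None differed between 3F and R1 (of all genes, 0.181% higher and 0.192% lower), where limma gave 1 an unadjusted p under 0.05. For the step between days 5 and 11, 4 of the 10 genes had a higher change in 4F than in 3F (of all genes, 3.84% higher and 3.28% lower) and 2 a higher change than in R1 (of all genes, 1.92% higher and 4.79% lower). None differed between 3F and R1 (of all genes, 0.0275% higher and 0.110% lower), where limma gave 2 an unadjusted p under 0.05. For day 11 set against day 0, 2 of the 10 genes had a higher change in 4F than in 3F (of all genes, 3.41% higher and 3.01% lower) and 1 a higher change than in R1 (of all genes, 2.47% higher and 7.03% lower). None differed between 3F and R1 (of all genes, 0.275% higher and 1.22% lower), where limma gave 1 an unadjusted p under 0.05. The share of the 10 genes in the direction named was above that of all genes in these 6 comparisons with 4F. Here too all genes include dim ones, and the 10 were chosen with earlier results of these data known. In 2 of them it rests on 1 gene, which is already 10% of the set. The count for the change to day 5 was 0 against R1 in 8 of the 12 cases with an array left out, and 1 against 3F in 4 of 12, as given for Hey2. Without 4F day 5 replicate 3 it was 3 in each, and the count against R1 from day 5 to day 11 was 4. Without R1 day 0 replicate 2 the count against R1 from day 0 to day 11 was 2. The comparisons share arrays, so their counts are not independent.

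**Figure D3:**
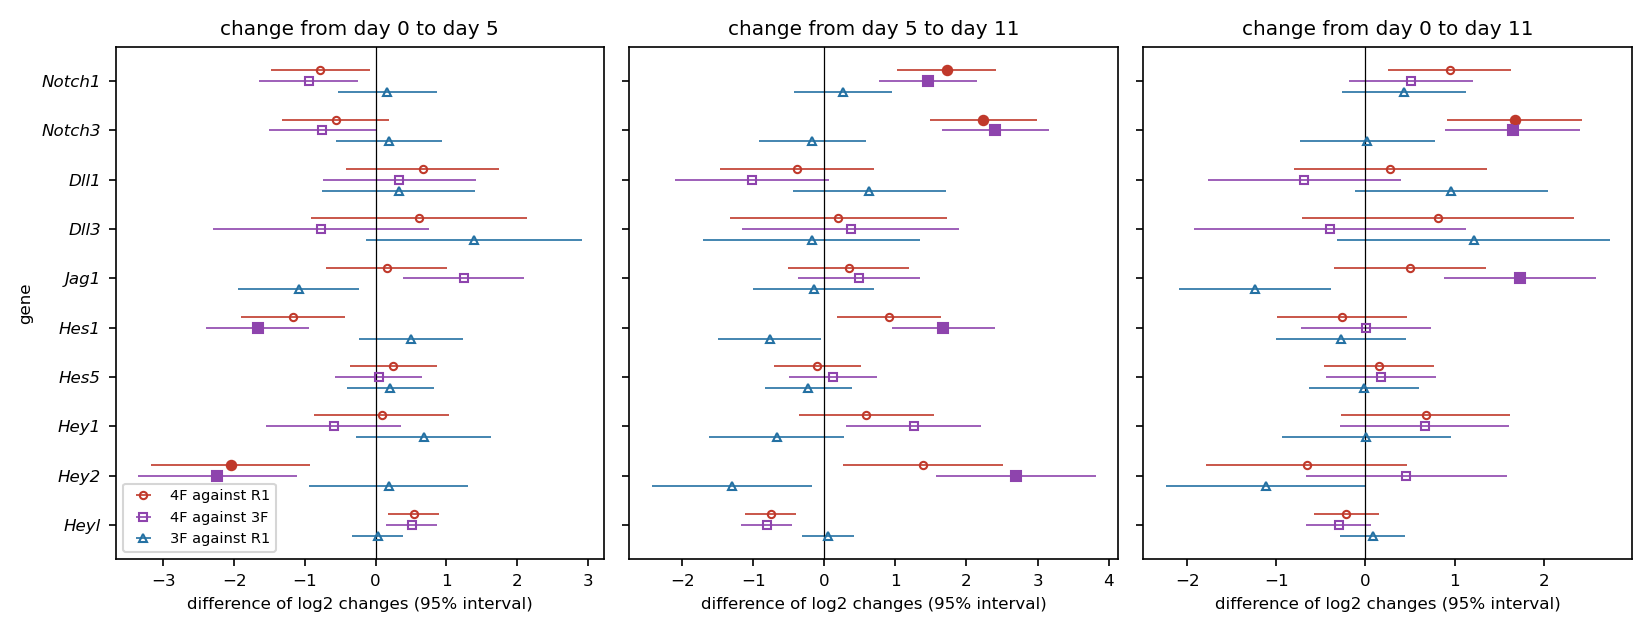
Differences between lines in the log2 change from day 0 to day 5, from day 5 to day 11 and from day 0 to day 11 (horizontal axes) for the 10 genes (rows). Symbols give the estimate for 4F against R1 (red circles), 4F against 3F (purple squares) and 3F against R1 (blue triangles), lines its 95% interval before adjustment, and filled symbols those past the threshold. The 12 filled symbols belong to Notch1, Notch3, Jag1, Hes1 and Hey2, and all compare 4F with another line.

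Notch3 gave the clearest difference of this kind. Its log2 change from day 5 to day 11 was 0.84 in 4F, -1.56 in 3F and -1.39 in R1, so that 4F exceeded 3F by 2.40 ± 0.36 (adjusted p = 0.000288) and R1 by 2.24 ± 0.36 (adjusted p = 0.000725). The excess from day 0 to day 11 was 1.65 ± 0.36 (adjusted p = 0.00592) over 3F and 1.67 ± 0.36 (adjusted p = 0.00408) over R1. All 4 calls held without each array in turn and under every other processing tried, and the second Notch3 probe set gave those from day 5 to day 11 as well, at 1.29 ± 0.27 (adjusted p = 0.00493) against 3F and 1.33 ± 0.27 (adjusted p = 0.00461) against R1. The Notch1 change from day 5 to day 11 in 4F exceeded that in 3F by 1.46 ± 0.34 (adjusted p = 0.00762) and that in R1 by 1.72 ± 0.34 (adjusted p = 0.00289). Both Notch1 calls held without each array and ended with the mean of its probe sets, at 0.69 (adjusted p = 0.0305) and 0.92 (adjusted p = 0.00678). With only the compared arrays, that against 3F had an adjusted p of 0.0732. The Notch1 difference in the change to day 5 was -0.95 ± 0.34 (adjusted p = 0.132) against 3F and -0.78 ± 0.34 (adjusted p = 0.216) against R1, or -1.32 (adjusted p = 0.00303) and -1.15 (adjusted p = 0.00883) without 4F day 5 replicate 3. For day 11 against day 0, the Notch1 difference from R1 was 0.94 ± 0.34 (adjusted p = 0.0599), or 1.10 (adjusted p = 0.0478) without R1 day 0 replicate 2.

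Jag1 was the ligand among these calls. Its change from day 0 to day 11 was 0.15 in 4F and -1.59 in 3F, a difference of 1.74 ± 0.41 (adjusted p = 0.00986) that held without each array, was 0.69 (adjusted p = 0.0663) with the mean of its probe sets and 1.79 (adjusted p = 0.061) with the 3′ minus 5′ index as a covariate. Between 3F and R1 the same Jag1 difference was -1.24 ± 0.41 (adjusted p = 0.111), and it passed without R1 day 0 replicate 1 (-1.41, adjusted p = 0.0417) or 3F day 11 replicate 3 (-1.63, adjusted p = 0.0114). Hes1 changed from day 0 to day 5 by -0.68 in 4F and 0.98 in 3F (difference -1.67 ± 0.35, adjusted p = 0.00726) and from day 5 to day 11 by -0.49 and -2.17 (difference 1.68 ± 0.35, adjusted p = 0.00422). Both Hes1 calls held without each array, and the second had an adjusted p of 0.0503 with only the compared arrays. Against R1, the Hes1 difference to day 5 was -1.17 ± 0.35 (adjusted p = 0.0604). It passed without 4F day 5 replicate 3 (-1.55, adjusted p = 0.00133) and without R1 day 0 replicate 1 (-1.26, adjusted p = 0.0449). The Hes1 difference from R1 between days 5 and 11 was 0.91 ± 0.35 (adjusted p = 0.103), or 1.29 (adjusted p = 0.00547) without 4F day 5 replicate 3.

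For Hey2 the change from day 0 to day 5 was lower in 4F than in 3F (a difference of -2.24 ± 0.54, adjusted p = 0.019) and lower than in R1 (-2.05 ± 0.54, adjusted p = 0.0322). The first call was lost without 3F day 5 replicate 2 or 3 or 4F day 5 replicate 1 or 2, and the second in 8 of the 12 cases, those of R1 day 0 replicates 2 and 3, R1 day 5 replicate 3, each 4F day 0 array and 4F day 5 replicates 1 and 2. The values then ranged over -2.60 to -1.94 and -2.37 to -1.63. The 4F change in Hey2 from day 5 to day 11 exceeded that in 3F by 2.70 ± 0.54 (adjusted p = 0.00318), which held without each array, and that in R1 by 1.39 ± 0.54 (adjusted p = 0.105), or 1.72 (adjusted p = 0.0453) without 4F day 5 replicate 3. For Hey1 the difference from 3F between days 5 and 11 was 1.26 ± 0.46 (adjusted p = 0.0762), and it passed without 4F day 5 replicate 3 (1.66, adjusted p = 0.0116) or 3F day 11 replicate 2 (1.42, adjusted p = 0.0462).

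Rgs5 and Kdr, markers of vessel cells, were lower in 4F at day 5. Of the 10 smooth muscle and pericyte genes, 4 were then lower in 4F than in 3F and 4 lower than in R1, with none higher. The median differences were -0.64 and -0.33. Of the 12 endothelial genes, 1 was higher and 2 lower than in each, with medians of 0.094 and -0.11. Of all genes, 2.91% were higher and 4.57% lower in 4F than in 3F, and 2.31% and 3.14% than in R1. Rgs5, the pericyte gene, averaged 6.18 ± 1.88 in 4F, 10.12 ± 0.32 in 3F and 9.82 ± 0.72 in R1 at day 5, and 9.02 ± 0.40, 8.15 ± 0.62 and 8.65 ± 0.67 in the same lines at day 11 (SD, n = 3 each). Its change from day 5 to day 11 exceeded that of 3F by 4.82 ± 0.86 (adjusted p = 0.00128) and that of R1 by 4.03 ± 0.86 (adjusted p = 0.00554) in 4F, or by 5.88 (adjusted p = 2.43e-06) and 5.08 (adjusted p = 2.13e-05) without 4F day 5 replicate 3. Rgs5 was picked from its list after its values were seen, and Kdr is 1 gene named out of the 12 of the endothelial list. Kdr, the endothelial receptor for VEGF, read 7.07, 7.06 and 9.79 on replicates 1, 2 and 3 of 4F at day 5, against means of 11.28 ± 0.42 in 3F and 11.05 ± 0.42 in R1. The 4F value minus that of 3F was -3.30 ± 0.47 (adjusted p = 4.27e-05), or -4.21 (adjusted p = 3.57e-09) without that array.

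For the change between days 5 and 11, 2 of the 10 smooth muscle and pericyte genes had a higher and 0 a lower change in 4F than in 3F. Against R1, 1 had a higher and 2 a lower change in 4F. The median differences from 3F and R1 were -0.25 and -0.23. Of 12 endothelial genes, 1 had a higher and 5 a lower change than in 3F. Against R1 these counts were 1 and 2, and the medians were -0.76 and -0.52. The medians of all genes for these differences were -0.115 and -0.129. Of all genes, 3.84% had a higher and 3.28% a lower change in 4F than in 3F. Against R1 these shares were 1.92% and 4.79%. At day 11, where 4.91% of all genes were lower in 4F than in 3F and 5.92% lower than in R1, 3 of the smooth muscle and pericyte genes were lower than in each, with none higher. Their mean level per array was 7.92 to 8.79 in 4F, 8.83 to 9.38 in 3F and 9.05 to 9.18 in R1, and 1 gene of the list was under the 40th percentile in each line. The endothelial list had 5 genes lower in 4F than in 3F at day 11 and 5 lower than in R1, and its mean level per array was 6.04 to 6.62 in 4F, 7.39 to 7.71 in 3F and 7.15 to 7.504 in R1. The part of these cells in the Notch values was not tested.

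Pluripotency genes were higher in 4F at day 5, and some of the list already at day 0. At day 0, 3 of 12 were higher in 4F than in 3F (0.885% of all genes) and 2 higher than in R1 (0.643% of all genes). None was lower, and the median differences were 0.39 and 0.38. At day 5, 10 of 12 were higher in 4F than in 3F (2.91% of all genes) and 10 higher than in R1 (2.31% of all genes), or 11 and 9 without 4F day 5 replicate 3. Their mean level per array was 10.9 to 11.5 in 4F, 8.36 to 9.10 in 3F and 7.96 to 9.76 in R1. Of the presomitic and somite genes, which are known to be expressed with Dll1 and Dll3 in the mouse embryo, 11 of 12 were measured. None of them passed at day 5 against day 0 in R1, and 1 fell in each of 4F and 3F. Their mean level was 5.64 to 6.13 in 4F, 5.71 to 5.87 in 3F and 5.65 to 5.98 in R1 at day 5, and 3 of the 11 were under the 40th percentile in each line. Of 11 neural genes measured, 1 rose and 3 fell in 4F by day 5, 1 rose and 2 fell in 3F, and none rose and 3 fell in R1. Of all genes, 2.25% rose and 4.82% fell in 4F, 5.04% and 7.40% in 3F and 6.62% and 8.10% in R1. In 4F, 1 neural gene fell when 4F day 5 replicate 3 was left out. The part of any of these cells in the Notch values was not tested.

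Of 37 other genes of the pathway, 35 were measured. Between day 0 and day 5, 0 rose and 1 fell in 4F, 4 rose and 3 fell in 3F, and 7 rose and 2 fell in R1. These are 0% higher and 2.86% lower in 4F, 11.4% higher and 8.57% lower in 3F and 20% higher and 5.71% lower in R1, against 2.25% higher and 4.82% lower, 5.04% higher and 7.40% lower, and 6.62% higher and 8.10% lower of all genes in the same lines. Their median change was 0.40 in 4F, 0.16 in 3F and 0.25 in R1, where the medians of all genes were 0.023, -0.0039 and -0.017. With each array left out in turn, the 1 call in 4F held, as did 7 of 7 in 3F and 3 of 9 in R1. Rbpj, the DNA-binding partner of the receptors, fell in 4F (-1.26 ± 0.26), 3F (-1.39 ± 0.26) and R1 (-1.38 ± 0.26), and the R1 value was -0.95 without R1 day 0 replicate 1. Nrarp, which Notch switches on and which in turn dampens the signal, rose in 3F (1.45 ± 0.32). Maml1, a coactivator, rose in 3F (1.31 ± 0.25) and R1 (1.34 ± 0.25), as did Numb, an inhibitor of the receptors (1.17 ± 0.20 in 3F and 1.21 ± 0.20 in R1). Pofut1, which adds fucose to the receptors, rose in R1 (1.35 ± 0.20). Neurl1a, a ubiquitin ligase, rose in 3F (1.49 ± 0.20), where Dtx1, a Deltex ligase, fell (-1.54 ± 0.26). The R1 changes of Nrarp, Neurl1a and Dtx1 had the same signs as in 3F. In 4F the changes were 0.99 for Nrarp, 0.71 for Neurl1a and 0.13 for Dtx1, with no call. With the mean of all probe sets of a gene, the changes of Maml1, Numb, Pofut1, Neurl1a and Dtx1 named here were under 2-fold, as was that of Rbpj in 4F after quantile normalization.

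Between day 5 and day 11, 4 of the 35 rose and 3 fell in 4F, 1 rose and 4 fell in 3F, and 2 rose and 2 fell in R1. These are 11.4% higher and 8.57% lower in 4F, 2.86% higher and 11.4% lower in 3F and 5.71% higher and 5.71% lower in R1, against 6.66% higher and 9.16% lower, 6.16% higher and 10.8% lower, and 7.10% higher and 4.53% lower of all genes in those lines. The falls in 4F and 3F were thus near the share of all genes. Without each array in turn, 2 of 7 calls held in 4F, 3 of 5 in 3F and 4 of 4 in R1. Dlk1, a ligand-like protein that lacks the domain by which Delta and Jagged bind, rose in 4F (4.47 ± 0.56), 3F (4.56 ± 0.56) and R1 (4.87 ± 0.56), more than any of the 10 genes in these comparisons. Nrarp fell in 3F (-2.34 ± 0.32) and R1 (-1.68 ± 0.32). In 4F it was -1.12 ± 0.32, or -0.78 without 4F day 5 replicate 3. Dtx1 fell in 4F (-1.85 ± 0.26), Neurl1a in 3F (-1.74 ± 0.20), and Spen, a corepressor that works with RBPJ, in R1 (-1.09 ± 0.20). Adam10, a protease that cuts the receptors, rose in 4F (1.03, or 1.19 without 4F day 5 replicate 3) and R1 (1.15 ± 0.22). Day 11 against day 0 gave 5 higher and 4 lower in 4F, 2 higher and 2 lower in 3F, and 6 higher and 1 lower in R1. As shares these are 14.3% higher and 11.4% lower in 4F, 5.71% higher and 5.71% lower in 3F and 17.1% higher and 2.86% lower in R1, against 6.72% higher and 14.1% lower, 7.55% higher and 16.0% lower, and 11.4% higher and 12.2% lower of all genes. The share of lower genes was under that of all genes in each line. Of these calls, 6 of 9 in 4F, 4 of 4 in 3F and 4 of 7 in R1 held without each array. Besides Dlk1, the 4F calls included Dner, a further atypical ligand (1.67 ± 0.41), Aph1a, a part of gamma-secretase (1.26 ± 0.15), and Rbpj (-1.74 ± 0.26). Dtx1 was lower in all 3 lines (-1.72 ± 0.26 in 4F, -1.61 ± 0.26 in 3F and -1.69 ± 0.26 in R1), and Fbxw7, a ubiquitin ligase for the freed receptor domain, was lower in 3F (-1.45 ± 0.17). All calls named in this paragraph other than those of Nrarp and Adam10 in 4F held without each array in turn. The mean of probe sets took those of Adam10 in R1, Aph1a, Neurl1a and of Dtx1 at day 11 against day 0 under 2-fold. The 3′ minus 5′ index as a covariate put Rbpj in 4F at -0.62 (adjusted p = 0.434).

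**Figure D4:**
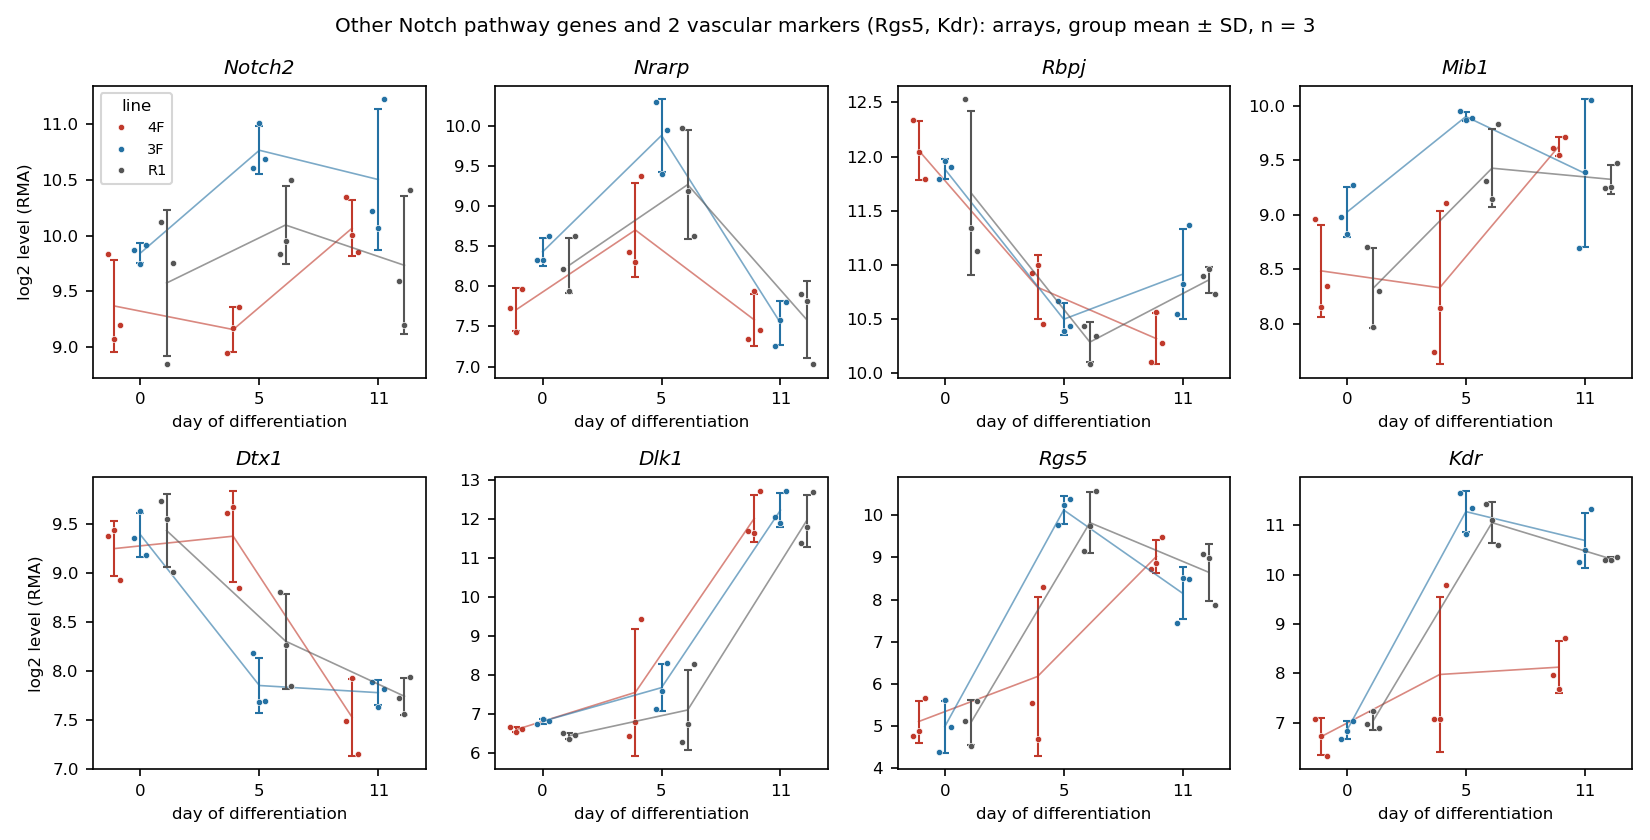
Levels (vertical axes, log2 RMA signal, a scale of its own for each gene) of 6 other Notch pathway genes and of the vascular markers Rgs5 and Kdr by day of differentiation. Points are arrays, bars the group mean ± SD (n = 3) in 4F (red), 3F (blue) and R1 (grey). Dlk1 is highest at day 11 in each line, Dtx1 stays high at day 5 in 4F, and Rgs5 and Kdr at day 5 are lower on the 4F arrays than on those of 3F and R1.

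Between lines at day 5, 3 of the 35 were higher and 6 lower in 4F than in 3F. These are 8.57% higher and 17.1% lower, against 2.91% higher and 4.57% lower of all genes. Without 4F day 5 replicate 3 the counts were 5 and 8. Of the 9 calls, 4 held without each array. They were those of the receptor Notch2 (-1.61 ± 0.32), Adam10 (-1.24 ± 0.22), Dtx1 (1.52 ± 0.26) and Mib1 (-1.57 ± 0.31). Mib1 is the ubiquitin ligase that drives uptake of the ligands. The 4 values were under 2-fold with the mean of probe sets. Jag2, the other Jagged ligand, averaged 8.09 ± 0.08 at day 0, 8.93 ± 0.14 at day 5 and 8.51 ± 0.38 at day 11 in 4F, 8.41 ± 0.08, 7.90 ± 0.18 and 7.43 ± 0.27 in 3F, and 8.28 ± 0.17, 7.94 ± 0.20 and 7.48 ± 0.10 in R1 (SD, n = 3 each). Its change from day 0 to day 5 was higher in 4F than in 3F by 1.35 ± 0.23 (adjusted p = 0.00164) and than in R1 by 1.18 ± 0.23 (adjusted p = 0.00582), and that from day 0 to day 11 by 1.41 ± 0.23 (adjusted p = 0.000605) and 1.22 ± 0.23 (adjusted p = 0.00159). These 4 calls held without each array. Mib1 changed more in 4F than in 3F from day 5 to day 11, by 1.82 ± 0.43 (adjusted p = 0.00966).

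For the 7 genes whose group means spanned at least 2, the genes with the most similar pattern were sought among 9067 others whose means spanned at least 1, by Pearson's r over the 9 group means, which share lines and days. Notch3 was most like Peg10 (r = 0.97), Greb1 (0.969) and Cplane1 (0.965). For the ligands these were Pmel (0.976), Fam98c (0.973) and Exoc6 (0.969) with Dll1, Phf10 (0.972), Galnt12 (0.966) and Lsr (0.963) with Dll3, and H3c11 (0.962), Clba1 (0.962) and Errfi1 (0.96) with Jag1. Hes1 was most like Usp16 (0.972), Cmtm6 (0.971) and Slc6a6 (0.954). Hey1 was most like Prkd1 (0.977), Igdcc3 (0.97) and Efna2 (0.969), and Hey2 like Tspan12 (0.983), Bmp5 (0.972) and Pwwp3b (0.97). Within the 10 genes, Hey1 and Hey2 had the highest r, 0.877. Notch3 had r = 0.848 with Hey1 and 0.817 with Hey2, Hes1 had 0.831 with Dll3, and Jag1 had -0.765 with Hey1, over the same 9 means.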

How the data were processed

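The deposited table holds log2 signals of 45101 probe sets on 27 Affymetrix arrays, made by the authors with RMA, per the submitters' processing notes. The RMA version and the probe annotation used with it are not given in the sources used here. Per the labels' protocols, RNA came from Qiagen RNeasy columns and biotinylated cRNA was made from it. The log2 values were used as deposited. Array annotation gave 34945 probe sets with 1 symbol, 932 with several and 9160 with none; 64 control probe sets were left out. Each of 18193 genes was represented by its brightest probe set.

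The 9 group means were fitted together in limma (version 3.58.1, run in R 4.3.3), and empirical Bayes moderated the variances. P-values were adjusted by Benjamini-Hochberg over all genes in each of 27 comparisons (18 of 2 groups, 9 of changes between lines), and calls needed an adjusted p under 0.05 and 2-fold. The fit was tested on simulated data. The sequence search ran in Python 3.11.15 with pandas 2.3.3, and figures were drawn with matplotlib 3.10.9 and numpy 2.4.6. Precision is limited by the 3 arrays a group: the log2 difference between replicates had a median SD of 0.315 (0.183 to 0.702). No arrays were identical.

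The 10 genes, the other lists and the tests were chosen with earlier results of these data known. Named were the 10 genes, up to 6 called genes of the other pathway list per comparison by size, the 3 genes most like each of the 10 genes whose group means spanned at least 2, and up to 3 markers a list. Of the pathway genes so allowed, mainly those whose calls held without each array are named. Jag2, Mib1, Nrarp and Rgs5 are also given outside that rule, chosen after their values were seen.

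The labels state no pairing of replicate numbers. The correlation of same-numbered arrays' deviations from their group means was over 0.1 for all 3 numbers in 3 of 18 comparisons: 4F day 11 against day 5 (0.129, 0.105, 0.152), day 0 of 4F against R1 (0.48, 0.252, 0.328), and day 11 of 3F against R1 (0.12, 0.492, 0.392). Alternatives were median centring, cyclic loess, quantile normalization, a filter on dim genes, the mean of probe sets, all probe sets, other thresholds, fits of the compared arrays alone, array weights, robust fitting with a variance trend, a replicate block, the 3′ minus 5′ index as a covariate and each array left out in turn. A block with only the compared arrays, and list counts without 4F day 5 replicate 3, were added after seeing the data.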

Additional observations from a re-analysis of the deposited data

Results flagged for a closer look

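In 12 cases a gene's change over time differed between lines in the test of the difference itself, always with 4F on one side. From day 5 to day 11, Notch1 changed by 1.72 ± 0.34 more in 4F than in R1 and by 1.46 ± 0.34 more than in 3F, and Notch3 by 2.24 ± 0.36 more than in R1 and 2.40 ± 0.36 more than in 3F. Notch3 also changed by 1.67 ± 0.36 more than in R1 and 1.65 ± 0.36 more than in 3F from day 0 to day 11. The Jag1 change from day 0 to day 11 was 1.74 ± 0.41 higher in 4F than in 3F. For Hes1 the difference of 4F from 3F was -1.67 ± 0.35 from day 0 to day 5 and 1.68 ± 0.35 from day 5 to day 11. For Hey2 the change from day 0 to day 5 differed by -2.05 ± 0.54 between 4F and R1 and by -2.24 ± 0.54 between 4F and 3F, and that from day 5 to day 11 by 2.70 ± 0.54 between 4F and 3F. All are log2 differences ± SE in limma, with adjusted p values of 0.000288 to 0.0322, and causes were not tested. Leaving out single arrays ended the Hey2 calls to day 5 and no other of the 12.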

How the results depend on the processing

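Counts are calls of the 10 genes summed over 3 comparisons: 11 within R1, 12 within 3F, 12 within 4F, 0 between lines at day 0, 6 at day 5, 2 at day 11, and for changes between lines 3 to day 5, 3 to day 11 and 6 from day 5 to day 11. The count at day 0 was 1 with median centring, with a 1.5-fold minimum, with no fold minimum and with only the compared arrays, and 3 with array weights. That at day 11 was 0 with the mean of probe sets, 4 with a 1.5-fold minimum, 5 with no fold minimum and 1 with only the compared arrays. Array weights gave 10 at day 5 and 9 for changes to day 5, and an adjusted p under 0.01 gave 1 for changes to day 5. With a replicate block, the pairing by number changed 1 call, that of the Hes1 change to day 5 in 4F against R1, which passed at -1.17 (adjusted p = 0.0493), and no other. A block with only the compared arrays gave 3 calls at day 0 and 1 at day 11. Leaving out each array gave 10 to 12 within R1, 11 to 14 within 3F, 11 to 15 within 4F, 0 to 1 at day 0, 4 to 10 at day 5, 2 to 4 at day 11, 1 to 6 for changes to day 5, 3 to 4 to day 11 and 6 to 9 from day 5 to day 11. The 10 at day 5 and the 6 for changes to day 5 came without 4F day 5 replicate 3, the 1 for changes to day 5 without its replicate 1 or 2, the 4 at day 11 without R1 day 11 replicate 3 and the 1 at day 0 without R1 day 0 replicate 1. No called value changed sign under any alternative run. The causes were not tested. The number of arrays limits the precision, and the table has no detection calls, so dim levels such as Hey2 at day 0 have no known background.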
